A study of Mus musculus with 21 samples.

Results

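Transcripts of 9 nuclear genes of the Krebs cycle and of the pyruvate dehydrogenase complex were followed in podocyte fractions of young and middle-aged mice. The genes were chosen by name, for their place in the pathway, and their rows were read among the 27179 genes of each count table. Earlier results of these data were known when they were chosen. In the order of the reactions they were *Pdha1* and *Dlat* of pyruvate dehydrogenase, and *Cs*, *Idh3a*, *Ogdh*, *Suclg1*, *Sucla2*, *Fh1* and *Mdh2* of the cycle. All 9 passed the filter on low counts.

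Pyruvate dehydrogenase is the mitochondrial complex that turns pyruvate, the end product of glycolysis, into acetyl-CoA. The Krebs cycle oxidizes acetyl-CoA to carbon dioxide in the mitochondrial matrix and passes the electrons to the respiratory chain. In the kidney cortex, cells of the proximal tubule are packed with mitochondria and depend on oxidative metabolism, while podocytes, the filtering epithelial cells of the glomerulus, hold fewer mitochondria.

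Messenger RNA was sequenced from cells of the kidney cortex that had been bound by an antibody to nephrin, a podocyte surface protein, and pulled out of the digested tissue on magnetic beads. All mice were male wildtype C57BL/6J. The young group had 6 libraries of untreated mice of 4 months. The saline group had 7 libraries of mice of 19.5 months that had received saline by intraperitoneal injection for 6 weeks from 18 months of age. The MCC950 group had 8 libraries of mice of the same age that had received 10 mg/kg MCC950, a small-molecule inhibitor of the NLRP3 inflammasome, on the same schedule. Age cannot be told apart from the injections. The study's methods place control mice of the young age in an archive of stored tissue, but the number of such mice does not match that of the young libraries, so whether all young libraries came from it is not known. The study describes the fractions as taken from single mice, so each library stands for a mouse.

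Total counts ranged from 27375870 to 36827823 in young, from 45772937 to 84876399 in saline and from 35440472 to 58247271 in MCC950 libraries. The young libraries were thus the shallowest, with no overlap with the saline group. Mitochondrially encoded genes made up 69.3% ± 9.82 (SD, n = 6) of the counts on average in young, 69.6% ± 5.32 (SD, n = 7) in saline and 56.4% ± 4.46 (SD, n = 8) in MCC950 libraries. The share was 13.2 percentage points lower in MCC950 than in saline libraries (exact two-sided permutation test, adjusted p = 0.00186). Levels are given here as CPM, counts scaled to a common library size, after TMM scaling, which takes the scale between libraries from the bulk of genes.

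The label podocyte was checked against 15 podocyte markers, such as *Nphs1* of the slit diaphragm, and all 15 were counted in every library. Their summed level was 899 to 1904 CPM in young, 385 to 659 CPM in saline and 507 to 808 CPM in MCC950 libraries. The 14 markers of the proximal tubule, such as *Slc34a1* and *Lrp2*, summed to 2331 to 8839 CPM in young, 2451 to 5604 CPM in saline and 3472 to 10068 CPM in MCC950 libraries. The fractions thus carried abundant tubular RNA in all 3 groups. Fewer cells of a type and less RNA per cell cannot be told apart in such bulk libraries.

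Per kilobase of exon, *Ogdh* had the highest level of the 9 genes in each group. *Ogdh*, which encodes the first component of the oxoglutarate dehydrogenase complex, reached 41.4 ± 5.48 CPM per kilobase (SD, n = 6) in young, 37.4 ± 3.17 (SD, n = 7) in saline and 48.2 ± 6.84 (SD, n = 8) in MCC950 libraries. *Mdh2*, *Pdha1* and *Cs* followed in the young group, at 21.4 ± 2.23, 20.5 ± 3.30 and 19.0 ± 1.96 CPM per kilobase (SD, n = 6). The other 5 genes had young means between 7.78 CPM per kilobase for *Dlat* and 11.2 for *Fh1*. Within each of these sets neighbouring means differed by less than the larger SD of the pair. *Cs* shares sequence with *Csl*, an intronless copy that took 25.3% to 33.0% of the summed counts of both genes over the 21 libraries, so the level of *Cs* is uncertain. The span of *Pdha1* overlaps 1128 bases of *Map3k15*, whose median level was 4.31 CPM.

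Windows around the transcription start were searched for motifs of factors that are known to act on housekeeping and mitochondrial genes. The windows were RefSeq promoters on GRCm38.p6, each holding 250 bases before and 50 after a start, and 8 of the 9 genes had at least 1. On either strand, the GC box (GGGCGG) was found for 6 of the 8 genes and in 35.7% of all 32851 windows. The CCAAT box (GATTGG) was found for *Cs*, *Fh1* and *Ogdh* and in 16.1% of all windows. The motif of NRF1, a regulator of mitochondrial genes, was searched as GCGC, A, any base and GCGC and was found for *Sucla2* and in 4.60% of all windows. The motif of the oestrogen-related receptors, TCAAGGTCA, was in none of the 8 genes' windows and in 0.423% of all windows. *Ogdh* had 6 windows and so more chances to match. The 120 bases before the start of *Cs*, *Fh1* and *Sucla2* are shown because they hold the CCAAT box or the NRF1 motif. They are read 5′ to 3′ on the gene's strand, at chr10:128337607-128337726 (+), chr1:175625636-175625755 (−) and chr14:73552666-73552785 (+), and capitals mark matches to a searched motif on either strand.
Cs: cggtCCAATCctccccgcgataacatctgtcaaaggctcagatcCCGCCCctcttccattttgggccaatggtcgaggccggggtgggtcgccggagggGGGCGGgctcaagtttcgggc
Fh1: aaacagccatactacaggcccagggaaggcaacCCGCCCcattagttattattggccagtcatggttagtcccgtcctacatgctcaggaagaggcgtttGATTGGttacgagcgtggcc
Sucla2: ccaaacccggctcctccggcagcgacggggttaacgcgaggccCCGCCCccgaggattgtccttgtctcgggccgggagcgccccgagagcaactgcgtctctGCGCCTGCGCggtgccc
A match to these letters is a description of the sequence and does not show that a factor binds there.

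The first comparison asked how the pathway differs between middle-aged and young fractions. *Idh3a*, the catalytic subunit of the NAD-dependent isocitrate dehydrogenase, fell by 28.8% and was the only one of the 9 genes that passed the test. No gene of the 9 was higher. Of all 16377 genes tested, 12.2% passed the test as higher and 12.4% as lower (edgeR quasi-likelihood test, Benjamini-Hochberg adjusted p, threshold 0.05). The fold changes of all 9 genes were negative, where 52.7% of all genes had a positive one, and their median was -0.15 on the log2 scale against 0.02 over all genes. With the proximal tubule marker mean as a covariate 3 of the 9 were positive, and with the macrophage and myeloid mean 7 were. Pairs of the 9 genes correlated over the 21 libraries at Pearson's r of 0.39 to 0.95, so they are not separate observations.

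*Idh3a* lies at chr9:54586511-54604662 on GRCm38. Its level in young libraries ran from 43.9 to 59.7 CPM with a median of 54.7. In saline libraries it ran from 31.3 to 43.3 CPM with a median of 37.6. All 7 saline libraries were below the lowest young library, a separation seen in 4.86% of all genes tested in this direction and in 4.51% in the other. The log2 fold change was -0.49 ± 0.11 (SE, adjusted p = 0.00204, edgeR). It was called in each of the 13 fits that left out 1 library of these groups, with log2 fold changes of -0.55 to -0.45. With every library thinned to about the same number of counts outside the mitochondrially encoded genes it was -0.49 (adjusted p = 0.00245).

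Markers of other cells moved in the same comparison. With age, 14 of the 15 podocyte markers were lower, and the mean log2 CPM of that list ran from 4.86 to 5.96 in young and from 3.09 to 4.26 in saline libraries. Lower means without overlap were also found for endothelium, with 5.50 to 6.25 in young and 4.72 to 5.20 in saline libraries and 7 of 8 markers lower, and for mesangium and smooth muscle, with 4.37 to 4.85 and 2.87 to 3.85 and 6 of 8 lower. Immune markers were higher, in 4 of 10 genes for macrophages and myeloid cells, 4 of 7 for T cells and 3 of 7 for B and plasma cells. The T cell means ran from -1.10 to -0.04 in young and from 0.16 to 1.13 in saline libraries. Of 9 collecting duct markers 5 were lower, and of 8 markers of the loop of Henle and distal tubule 2 were, with means that overlapped. The proximal tubule list had 1 lower gene of 14, and its means ran from 6.81 to 8.41 and from 6.58 to 7.82. With the proximal tubule mean as a covariate, the log2 fold change of *Idh3a* was -0.45 (adjusted p = 0.00222). With the macrophage and myeloid mean it was -0.33 (adjusted p = 0.0374). With the podocyte mean it was -0.41 and the call was lost (adjusted p = 0.48). In that last fit 6 genes of all tested were higher and 0 lower, since the podocyte means of the groups do not overlap. The fall of *Idh3a* and the fall of podocyte RNA with age therefore cannot be told apart. The part of the endothelial, mesangial, collecting duct, loop of Henle and distal tubule, T cell and B cell lists in it was not tested.

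The fall of *Idh3a* was also read against a second mitochondrial isocitrate dehydrogenase. The log2 ratio of *Idh3a* to *Idh2*, the NADP-dependent enzyme, had a mean of -1.32 ± 0.131 (SD, n = 6) in young and -1.71 ± 0.215 (SD, n = 7) in saline libraries. The difference was -0.40 (exact two-sided permutation test, adjusted p = 0.021 over 9 ratio tests). *Idh2* alone had a log2 fold change with age of -0.10 ± 0.14 (SE, adjusted p = 0.646, edgeR), so the ratio is not separate from the fall of *Idh3a*. A ratio within a library does not depend on library size but does depend on the mix of cells. Like the fall itself, it cannot be told apart from the fall of podocyte RNA. The partner subunits of the same enzyme, *Idh3b* and *Idh3g*, were set beside *Idh3a* after its value was seen, so they are given as a description. Their log2 fold changes with age were -0.01 ± 0.10 (SE, adjusted p = 0.958) and -0.09 ± 0.10 (SE, adjusted p = 0.558). The log2 ratio of *Idh3a* to *Idh3b* ran from -0.35 to -0.01 in young, from -0.93 to -0.39 in saline and from -0.93 to -0.41 in MCC950 libraries. Every library of both middle-aged groups thus had a lower ratio to *Idh3b* than every young library. For *Idh3g*, the log2 ratio ran from 0.46 to 0.89 in young, from -0.09 to 0.47 in saline and from -0.11 to 0.45 in MCC950 libraries, so the saline and young ranges overlapped for that partner.

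*Dlat* encodes the acetyltransferase core of pyruvate dehydrogenase and lies at chr9:50634633-50659780. It ran from 33.0 to 42.4 CPM with a median of 37.6 in young and from 27.6 to 35.2 CPM with a median of 30.7 in saline libraries. In 5 of 7 saline libraries it was below every young library, and the log2 fold change was -0.28 ± 0.11 (SE, adjusted p = 0.0721). It missed the threshold in the edgeR fit and passed it in DESeq2, at -0.30 (adjusted p = 0.0277). The remaining 7 genes overlapped between young and saline libraries. Their log2 fold changes lay between -0.20 ± 0.12 (SE) for *Sucla2* and -0.04 ± 0.09 for *Cs*, with adjusted p-values of 0.247 to 0.786. Without young replicate 1, those of *Suclg1* and *Fh1* were 0.05 and 0.03.

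**Figure D1:**
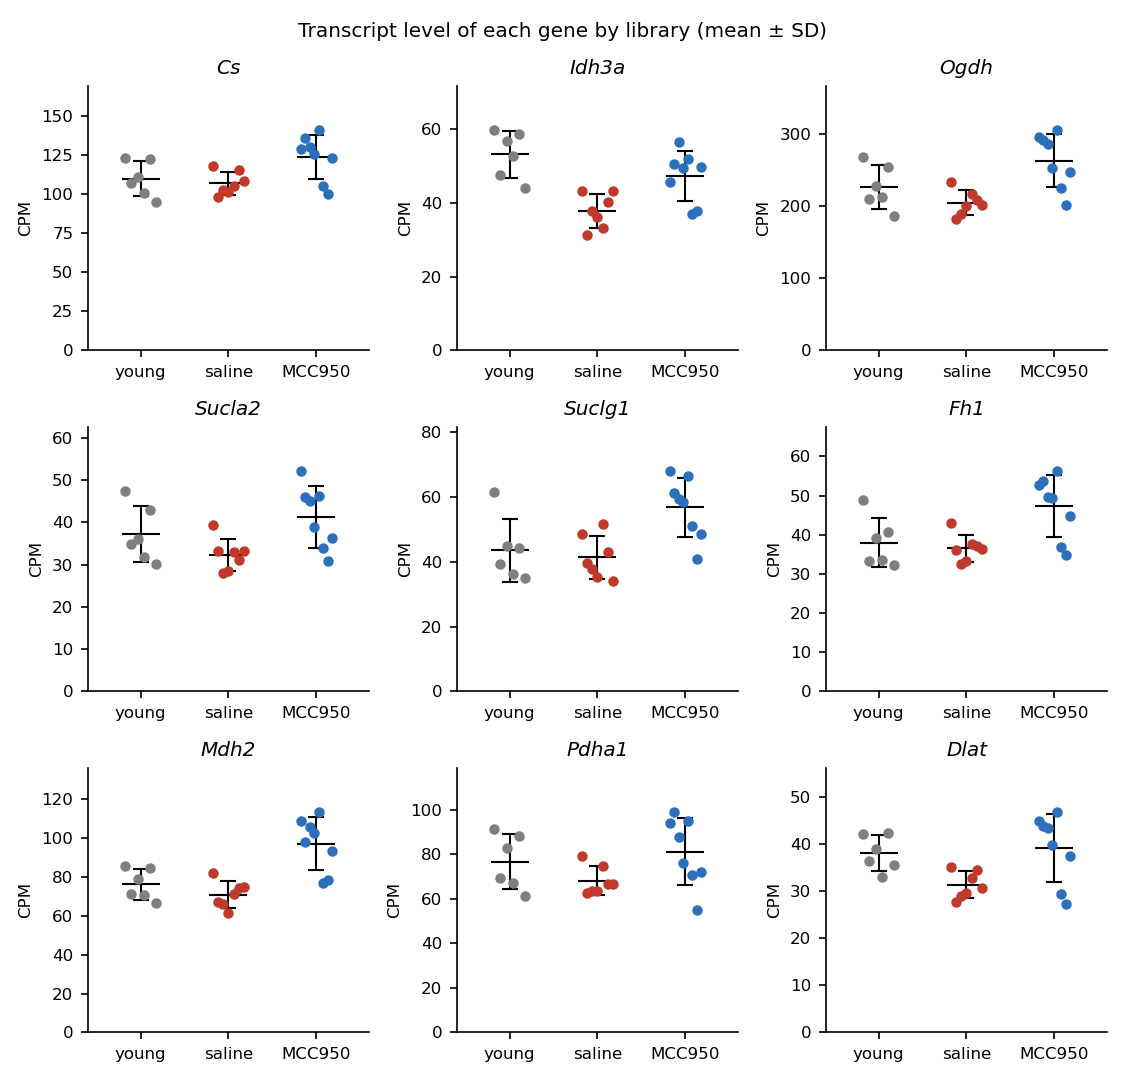
CPM of each of the 9 genes (y axis, from 0) in the 6 young, 7 saline and 8 MCC950 libraries, with 1 point per library and the mean ± SD in black. For Idh3a every saline point lies below every young point, and for Mdh2 6 of the 8 MCC950 points lie above every saline point.

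The second comparison asked how MCC950 changed the pathway at the same age. Of the 9 genes 7 were higher in MCC950 than in saline libraries and 0 were lower. Over all genes tested, 11.9% were higher and 4.86% lower. The 7 genes were *Idh3a*, *Ogdh*, *Sucla2*, *Suclg1*, *Fh1*, *Mdh2* and *Dlat*, with log2 fold changes of 0.32 to 0.45. All 9 fold changes were positive, where 50.5% of all genes had a positive one, with a median of 0.35 against 0.00 over all genes. For none of the 9 were the groups free of overlap, which held for 1.15% of all genes in this direction.

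*Mdh2* encodes the mitochondrial malate dehydrogenase, which closes the cycle by remaking oxaloacetate, and lies at chr5:135778649-135790386. It ran from 61.2 to 81.9 CPM with a median of 71.3 in saline and from 77.1 to 113.4 CPM with a median of 100.2 in MCC950 libraries. In 6 of 8 MCC950 libraries it was above the highest saline library. The log2 fold change was 0.45 ± 0.09 (SE, adjusted p = 0.00391), a rise of 36.9%. It was called in each of the 15 fits that left out 1 library of these groups.

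*Ogdh* lies at chr11:6291597-6359094 and acts at the step that releases the second carbon dioxide of the cycle. Saline libraries held 181 to 233 CPM with a median of 201 and MCC950 libraries 201 to 305 CPM with a median of 269. The highest saline library was exceeded by 6 of 8 MCC950 libraries. The log2 fold change was 0.36 ± 0.10 (SE, adjusted p = 0.0157), and it too was called in all 15 fits that left out 1 library. The log2 ratio of *Ogdh* to *Dlst*, the succinyltransferase of the same complex, did not pass the test between these groups (difference -0.08, exact permutation test, adjusted p = 0.358).

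Succinyl-CoA synthetase, which makes ATP or GTP directly from the cycle, is built from the shared subunit *Suclg1* and from either *Sucla2* or *Suclg2*. *Suclg1*, at chr6:73248505-73276907, ran from 34.1 to 51.8 CPM with a median of 39.6 in saline and from 41.0 to 68.1 CPM with a median of 59.0 in MCC950 libraries. Of 8 MCC950 libraries 5 were above the highest saline library, and the log2 fold change was 0.45 ± 0.13 (SE, adjusted p = 0.0203). *Sucla2*, the ATP-forming subunit, at chr14:73552786-73596144, ran from 28.0 to 39.4 CPM in saline and from 30.8 to 52.2 CPM in MCC950 libraries, with medians of 33.0 and 42.0. Only 4 of 8 MCC950 libraries were above the highest saline library, and the log2 fold change was 0.35 ± 0.12 (SE, adjusted p = 0.0407). The log2 ratio of *Sucla2* to the GTP-forming *Suclg2* did not pass the test in any comparison, with differences of -0.08 to 0.09 (exact permutation tests, adjusted p = 0.556 to 0.848).

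*Fh1*, the fumarase of the mouse, at chr1:175601378-175625635, ran from 32.5 to 43.1 CPM in saline and from 34.9 to 56.3 CPM in MCC950 libraries, with medians of 36.4 and 49.6. The highest saline library was exceeded by 6 of 8 MCC950 libraries, and the log2 fold change was 0.37 ± 0.11 (SE, adjusted p = 0.0236). *Idh3a* ran from 36.9 to 56.4 CPM with a median of 49.6 in MCC950 libraries, against the 31.3 to 43.3 CPM of the saline group. In 6 of 8 MCC950 libraries it was above the highest saline library, and the log2 fold change was 0.32 ± 0.10 (SE, adjusted p = 0.0308). *Dlat* ran from 27.3 to 46.7 CPM with a median of 41.6 in MCC950 libraries. Its libraries spread to both sides of the saline group, with 6 above the highest and 1 below the lowest, and the log2 fold change was 0.32 ± 0.10 (SE, adjusted p = 0.0396).

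*Cs* and *Pdha1* did not pass the test. *Cs*, the citrate synthase that starts the cycle, at chr10:128337727-128362482, ran from 97.8 to 118 CPM in saline and from 99.8 to 141 CPM in MCC950 libraries, with a log2 fold change of 0.21 ± 0.08 (SE, adjusted p = 0.0744). Its relative *Csl* had one of 0.09 ± 0.08 (SE, adjusted p = 0.413). *Pdha1*, the subunit of pyruvate dehydrogenase that kinases phosphorylate to switch the complex off, lies at chrX:160122219-160138430. It ran from 62.4 to 79.3 CPM in saline and from 54.8 to 98.9 CPM in MCC950 libraries, with a log2 fold change of 0.25 ± 0.12 (SE, adjusted p = 0.133). DESeq2 called 8 of the 9 genes, with *Cs* added at an adjusted p of 0.0499.

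No group was uniform in its libraries. Young replicate 1 was the highest of its group for 8 of the 9 genes and young replicate 6 the lowest for 8. Saline replicate 1 was the highest of its group for 7 and saline replicate 2 the lowest for 5. MCC950 replicate 7 was the lowest of its group for 7 of the 9 genes and MCC950 replicate 6 for the other 2, while MCC950 replicate 5 was the highest for 5. The number of the 9 genes called between MCC950 and saline depended on single libraries and ranged from 2 to 9 over the 15 fits that left out 1. It was 2 without saline replicate 4, 3 without saline replicate 3 or MCC950 replicate 5, and 4 without saline replicates 2 or 7 or MCC950 replicates 3 or 4. Apart from *Mdh2* and *Ogdh*, the call was kept in 13 of the 15 fits for *Suclg1*, 12 for *Fh1*, 7 for *Idh3a*, 6 for *Dlat* and 4 for *Sucla2*. The direction was positive for all 9 genes in all 15 fits.

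**Figure D2:**
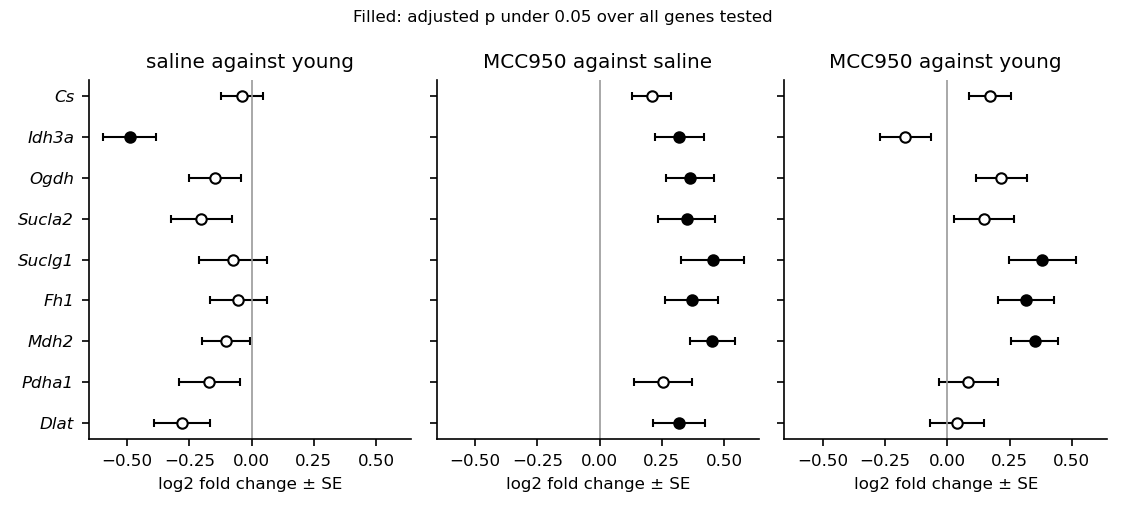
Log2 fold change ± SE of the 9 genes (x axis) in the comparisons of saline with young, MCC950 with saline and MCC950 with young, with filled points where the gene passed the test. Idh3a is the only filled point for age, at -0.49, and 7 points are filled for MCC950 against saline, at 0.32 to 0.45.

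Markers of the proximal tubule moved with the 9 genes. Of 14 such markers 8 were higher in MCC950 than in saline libraries and 0 lower, with a median log2 fold change of 0.90. The mean log2 CPM of the list ran from 6.58 to 7.82 in saline and from 7.25 to 8.53 in MCC950 libraries, and none of the 14 markers was at 0 in any library. With this mean as a covariate none of the 9 genes was called between MCC950 and saline, and their log2 fold changes ran from -0.10 to 0.22 with adjusted p-values of 0.124 to 0.941. In that fit 469 genes were higher and 389 lower over all genes, and 1984 and 1683 at an unadjusted p under 0.05. At that p 1 of the 9, *Mdh2*, was higher. Its log2 fold change was 0.22 ± 0.08 (SE, adjusted p = 0.124). Podocyte markers also rose without a covariate, with 5 of 15 higher in MCC950 than in saline libraries, 0 lower and a median log2 fold change of 0.48. With the podocyte mean as a covariate 6 of the 9 were called, *Idh3a* being lost, and with the macrophage and myeloid mean 7 were called. Of all genes, 2446 were higher and 1153 lower with the podocyte mean, and 2082 and 1039 with the macrophage and myeloid mean.

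The relation to proximal tubule markers was then read within each group, a step added after these values were seen. In the MCC950 group Pearson's r of the 9 genes with the marker mean ran from 0.65 to 0.98 and Spearman's rho from 0.55 to 0.98 (n = 8). For 8 of the 9, all but *Idh3a*, both passed exact permutation tests adjusted over 27 relations. In the saline group r ran from -0.03 to 0.94 and rho from -0.14 to 0.96 (n = 7), and *Suclg1* alone passed (exact permutation test, adjusted p = 0.0114 for r and 0.015 for rho). In the young group r ran from 0.49 to 0.90 and rho from 0.71 to 0.89 (n = 6), and *Sucla2* passed for r (exact permutation test, adjusted p = 0.03) but not for rho. Without the 2 libraries farthest from the median marker mean, r ran from 0.58 to 0.96 in MCC950, from 0.20 to 0.96 in saline and from 0.49 to 0.87 in young libraries. The genes and the markers were counted in the same libraries and share their scaling.

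**Figure D3:**
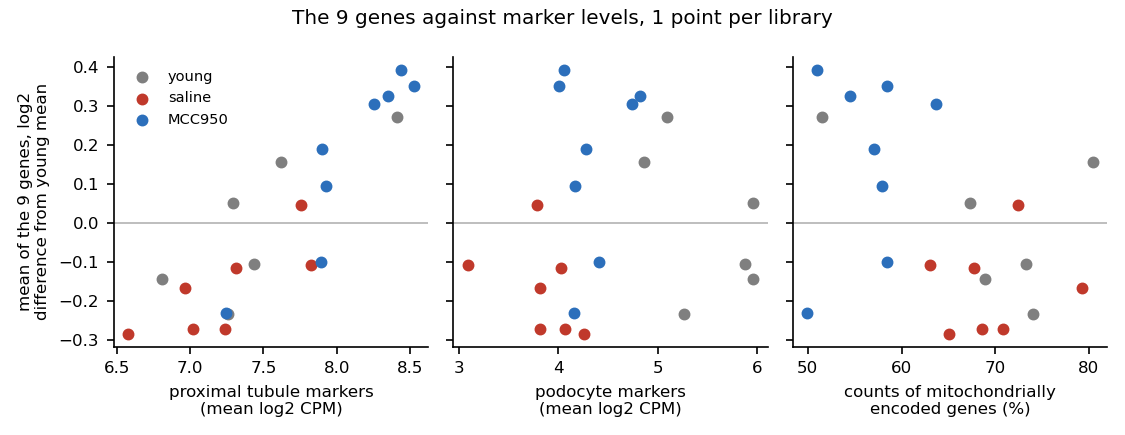
Mean of the 9 genes in each library as the log2 difference from the young mean (y axis) against the mean log2 CPM of proximal tubule markers, that of podocyte markers and the percentage of counts from mitochondrially encoded genes (x axes), with 1 point per library. The 5 highest MCC950 libraries, at 0.19 to 0.39, have proximal tubule means of 7.90 to 8.53, and MCC950 replicate 7, the lowest of its group at -0.23, has one of 7.25. MCC950 replicates 8 and 6, at 0.09 and -0.10, have means of 7.93 and 7.89, and saline replicate 5, at -0.11, has one of 7.82.

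**Figure D4:**
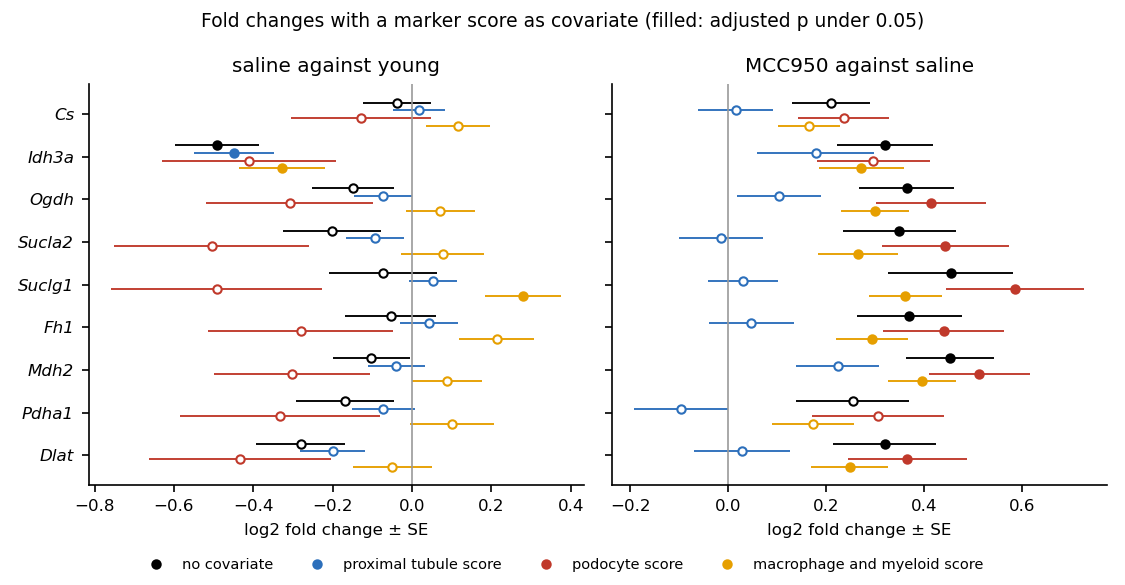
Log2 fold change ± SE of the 9 genes (x axis) for saline against young and MCC950 against saline, without a covariate and with the mean of a marker list as one, filled where the adjusted p was under 0.05. With the proximal tubule mean no point is filled for MCC950, while Idh3a is still filled for age at -0.45.

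The third comparison set MCC950 beside young libraries. It shares the young and the MCC950 libraries with the other two, so its values are given on their own. Of the 9 genes 3 were higher and 0 lower, where 21.8% of all genes tested were higher and 16.5% lower. A positive fold change was found for 8 of the 9 and for 58.1% of all genes. Groups without overlap were found for 0 of the 9, and for 3.28% of all genes in the higher and 4.66% in the lower direction. The median log2 fold change of the 9 was 0.17 against 0.08 over all genes. *Mdh2* ran from 66.4 to 85.8 CPM in young libraries and was above that range in 6 of 8 MCC950 libraries, with a log2 fold change of 0.35 ± 0.09 (SE, adjusted p = 0.00647). It was called in all 14 fits that left out 1 library. *Suclg1*, at 35.1 to 61.7 CPM in young libraries, had a log2 fold change of 0.38 ± 0.13 (SE, adjusted p = 0.0295), and *Fh1*, at 32.3 to 48.8 CPM, one of 0.32 ± 0.11 (SE, adjusted p = 0.0312). Both were called in 7 of the 14 fits. *Idh3a* had the only negative value, -0.17 ± 0.10 (SE, adjusted p = 0.197), with 2 of 8 MCC950 libraries below the young range. None of the 9 was called with the proximal tubule or the podocyte mean as a covariate, and 7 were called with the macrophage and myeloid mean. Of all genes, 3571 were higher and 2674 lower with the proximal tubule mean, and 51 and 118 with the podocyte mean. The podocyte means of these groups do not overlap, so few genes could be called in that fit. With the macrophage and myeloid mean 4323 of all genes were higher and 3123 lower.

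The log2 ratio of *Idh3a* to *Idh2* was also lower in MCC950 than in young libraries, by a difference of -0.37 (exact permutation test, adjusted p = 0.032). It ran from -1.51 to -1.17 in young and from -2.02 to -1.33 in MCC950 libraries. Between MCC950 and saline libraries the difference was 0.02 (exact permutation test, adjusted p = 0.848). The log2 ratio of *Ogdh* to *Dlst* was lower in MCC950 than in young libraries, with means of 0.95 ± 0.09 (SD, n = 8) and 1.11 ± 0.09 (SD, n = 6) and a difference of -0.16 (exact permutation test, adjusted p = 0.032). When 1 library was left out, the call was lost in 8 of 14 fits for *Idh3a* to *Idh2* and in 9 of 14 for *Ogdh* to *Dlst*, with exact permutation adjusted p-values of up to 0.0745, while the lower ratio of *Idh3a* to *Idh2* with age was called in all 13.

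Another 41 genes of the pathway were counted in 6 lists, and 40 were tested. *Sdhd*, a membrane anchor of succinate dehydrogenase, had 0 to 12 counts per library and failed the filter. Its group means were 0.09 to 0.12 CPM, where those of *Sdhb* of the same enzyme were 46.8 to 65.5. The handling of reads with several alignments is not known, and why *Sdhd* was so low was not tested. With age 0 of the 40 were higher and 0 lower by edgeR, and likewise by DESeq2. Over all genes the edgeR shares were 12.2% and 12.4%. In the edgeR fit, at an unadjusted p under 0.05 *Pdp1* and *Lias* were higher and *Mpc1* was lower. Of all 16377 genes, 3152 were higher and 2897 lower at that p. Between MCC950 and saline 17 were higher and 1 lower, and between MCC950 and young 16 were higher and 0 lower. Of all genes tested, 11.9% were higher and 4.86% lower against saline, and 21.8% and 16.5% against young. With the proximal tubule mean as a covariate, 2 of the 40, *Pdp2* and *Idh1*, were higher than in saline libraries and 1, the pyruvate dehydrogenase kinase *Pdk1*, named after its value was seen, was lower. Their log2 fold changes were then 0.47 ± 0.14 (SE, adjusted p = 0.049), 0.45 ± 0.12 (SE, adjusted p = 0.0382) and -0.37 ± 0.10 (SE, adjusted p = 0.0335). In the same fit 4 of the 40, *Sdhb*, *Pdk2*, *Slc25a1* and *Lias*, were higher with age, and 7 were higher and 3 lower in MCC950 than in young libraries. Of all 16377 genes, 2716 were higher and 2262 lower with age in that fit, 469 and 389 against saline, and 3571 and 2674 against young. With the podocyte mean, 0 were called with age (at an unadjusted p under 0.05, 8 lower and 1 higher) and 0 against young (2 higher and 0 lower at that p), and 24 were higher and 1 lower against saline. Of all genes, 2446 were higher and 1153 lower against saline with that mean, 6 and 0 with age, and 51 and 118 against young. At the unadjusted p, 790 of all genes were higher and 996 lower with age, and 1088 and 1137 against young. With the macrophage and myeloid mean, 4 were higher and 0 lower with age, 20 higher and 2 lower against saline, and 30 higher and 2 lower against young. Of all 16377 genes, 1726 were higher and 1701 lower with age in that last fit. Against saline 2082 of all genes were higher and 1039 lower in it, and against young 4323 and 3123.

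Of the other subunits and enzymes of the mitochondrial cycle, 6 of 11 tested were higher with MCC950 than with saline and 0 lower. Over all genes the shares were 11.9% and 4.86%. *Sdhc* and *Sdhb* of succinate dehydrogenase had log2 fold changes of 0.46 ± 0.12 (SE, adjusted p = 0.0152) and 0.39 ± 0.11 (SE, adjusted p = 0.0241). *Dlst* had one of 0.44 ± 0.11 (SE, adjusted p = 0.0122). In each of these 3 genes 5 or 6 of 8 MCC950 libraries were above the highest saline library. *Idh3b* and *Idh3g* were also among the 6.

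The remaining subunits of pyruvate dehydrogenase, *Pdhb* and *Pdhx*, did not pass the test, as was the case for *Pdha1*. Of 7 kinases and phosphatases that set the activity of the complex, 1 was higher and 1 lower. Over all genes the shares were 11.9% and 4.86%. *Pdp2*, a phosphatase that reactivates the complex, ran from 11.3 to 14.3 CPM in saline and from 14.1 to 29.7 CPM in MCC950 libraries, with a log2 fold change of 0.75 ± 0.13 (SE, adjusted p = 0.00136). *Pdp1*, the other catalytic phosphatase, ran from 5.50 to 6.92 CPM in saline and from 3.86 to 5.96 CPM in MCC950 libraries, with a log2 fold change of -0.33 ± 0.09 (SE, adjusted p = 0.0218). These phosphatases moved in opposite directions, with 7 of 8 MCC950 libraries above the saline range for *Pdp2* and 6 of 8 below it for *Pdp1*. Against young libraries *Pdp2* had a log2 fold change of 0.75 and the kinase *Pdk2* one of 0.59 ± 0.20 (SE, adjusted p = 0.0251).

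Of 5 genes of pyruvate entry and of reactions that refill the cycle, 2 were higher. *Mpc2*, a subunit of the mitochondrial pyruvate carrier, ran from 22.3 to 40.2 CPM in saline and from 33.2 to 61.5 CPM in MCC950 libraries, with a log2 fold change of 0.64 ± 0.16 (SE, adjusted p = 0.0112). *Glud1*, the glutamate dehydrogenase that feeds oxoglutarate into the cycle, had one of 0.27 ± 0.07 (SE, adjusted p = 0.0156). Of 12 cytosolic counterparts and exchange carriers, 8 were higher and 0 lower. For both lists the shares over all genes were 11.9% higher and 4.86% lower. *Idh1*, the cytosolic isocitrate dehydrogenase, ran from 43.0 to 101.03 CPM in saline and from 97.6 to 189 CPM in MCC950 libraries. Its log2 fold change of 0.96 ± 0.17 (SE, adjusted p = 0.00201) was the largest of the 40 genes, and 7 of 8 MCC950 libraries were above every saline library. The dicarboxylate carrier *Slc25a10*, the cytosolic aconitase *Aco1* and the cytosolic malate dehydrogenase *Mdh1* had log2 fold changes of 0.74, 0.53 and 0.50. None of 3 genes of lipoate synthesis, which makes the cofactor of *Dlat* and *Dlst*, was called against saline, while *Lias* was higher against young, at 0.41 ± 0.10 (SE, adjusted p = 0.0033).

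Over the 21 libraries the genes whose pattern was most like the mean of the 9 included *Atp5a1* with Pearson's r of 0.98, and then *Atp5b*, *Coq9*, *Immt*, *Uqcrfs1*, *Cyb5b*, *Sod2*, *Ndufa10* and *Mdh1* with r of 0.97 to 0.98. Most encode parts of the respiratory chain, ATP synthase or other mitochondrial proteins, and *Mdh1* is cytosolic. The log2 fold changes of these named genes between MCC950 and saline ran from 0.32 for *Atp5a1* to 0.50 for *Mdh1*. Among the 9 genes themselves the closest pair was *Cs* and *Fh1*, with r of 0.95. *Idh3a* was the least alike for 7 of the other 8 genes, with r of 0.39 with *Suclg1* and 0.80 with *Dlat*, its nearest. These are descriptions over libraries that share their scaling and tubular content.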

How the data were processed

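Messenger RNA of podocyte fractions was sequenced in 21 libraries. According to the study's methods and the submitters' processing notes, reads were trimmed with Trim Galore, aligned to mm10 (GRCm38) with Bowtie2 and counted per gene with featureCounts. Versions, the strand setting and the handling of reads with several alignments are not given in the sources used here. The authors deposited raw read counts for 27179 genes by Entrez number, 1 table per library, and these counts were used without further scaling by the authors. A table of counts normalized with DESeq2 was not used.

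Gene names came from RefSeq on GRCm38.p6 and exon lengths from GENCODE. Samples were grouped by their labels. edgeR 4.0.16 in R 4.3.3 (TMM, filterByExpr by group, quasi-likelihood test, all 3 groups in the same fit) tested 16377 genes, with Benjamini-Hochberg adjustment over all of them and a threshold of 0.05. DESeq2 1.42.0 was an alternative. Marker means are mean log2 CPM with a prior count of 2. Ratios are of raw counts with 0.5 added to each, taken within a library and compared by permutation of the libraries (exact, two-sided, scipy 1.17.1). In total 11 alternative settings of the fit and the fits without 1 library were run, and 2 analyses were added after seeing the data. The fit was checked on simulated data. A first bar on the number of changed genes recovered was missed and was replaced, after that result was seen, by criteria on bias and false calls. No library duplicated another.

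The 9 genes, the pathway lists and the marker lists were chosen with earlier results of these data known. By rule the named genes are the 9, up to 4 called genes per pathway list by size of change, and the 10 genes most alike. Some genes are named outside it, such as the ratio partners *Idh2* and *Suclg2*, and *Sdhd*, *Pdhb*, *Pdhx*, *Mpc1*, *Pdk1*, *Idh3b* and *Idh3g*. A few genes that fall under this rule are not reported here and are still part of the counts. Per-library totals ranged from 27375870 to 84876399 counts.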

Additional observations from a re-analysis of the deposited data

Results flagged for a closer look

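The CPM of *Suclg1* in young replicate 1 was 61.7, while the next highest young library had 44.9. This gap was 0.631 of the range of the 6 young libraries, above Dixon's 95% critical value of 0.625. It was the only sample far from its group among 39 groups tested, and chance sets apart about 1 in 20. Without that library the log2 fold change of *Suclg1* with age was 0.05 in place of -0.07, and neither passed the test.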

How the results depend on the processing

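The direction of *Idh3a* with age and of *Mdh2* and *Ogdh* with MCC950 was the same in every alternative run, and the fall of *Idh3a* lost its call only with the podocyte mean as a covariate. The number of the 9 genes lower with age was 2 instead of 1 with DESeq2, with DESeq2 size factors, with only the 2 groups compared and with the replicate block, *Dlat* being added each time, and 0 with the podocyte mean. It was 1 to 2 when 1 library was left out. Same-numbered libraries correlated at -0.061 to 0.35 with age and -0.14 to 0.33 with MCC950. Libraries of different numbers were not compared in this way, so these values cannot tell whether the numbers pair the mice. With the replicate block, 5 of the 9 were higher with MCC950 than with saline, *Idh3a* and *Dlat* being lost, and 4 were higher than in young libraries.

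With the proximal tubule mean as a covariate, 0 of the 9 were higher in MCC950 libraries against saline or young, and 469 genes were higher and 389 lower against saline. With the podocyte mean, 6 genes were higher and 0 lower with age, and 51 higher and 118 lower against young, with 0 of the 9 called there. With the macrophage and myeloid mean, 1 of the 9 was higher with age and 7 were higher against young, where 1 was with only the 2 groups compared. Of all genes, 1726 were higher with age and 4323 against young with that mean. DESeq2 called 1250 genes lower with MCC950 than with saline. Leaving out 1 library gave 2 to 9 of the 9 higher against saline and 1 to 5 against young, with 1008 to 2392 genes higher and 515 to 1007 lower against saline, the lowest of these without saline replicate 4.

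Of the genes that changed sign, *Sucla2* against saline was called without a covariate, *Suclg1* with age was called with the macrophage and myeloid mean, and no other value was called. With the proximal tubule mean, log2 fold changes with age were 0.018 for *Cs*, 0.052 for *Suclg1* and 0.042 for *Fh1*. Against saline they were -0.014 for *Sucla2* and -0.10 for *Pdha1*, and against young -0.11 for *Sucla2*, -0.17 for *Pdha1* and -0.17 for *Dlat*. With the podocyte mean they were -0.061 for *Sucla2*, -0.027 for *Pdha1* and -0.067 for *Dlat* against young. With the macrophage and myeloid mean, those with age were 0.12 for *Cs*, 0.071 for *Ogdh*, 0.077 for *Sucla2*, 0.28 for *Suclg1* (adjusted p = 0.0415), 0.21 for *Fh1*, 0.088 for *Mdh2* and 0.10 for *Pdha1*. That of *Dlat* against young was -0.0049 with DESeq2 and with its size factors. Leaving out 1 library gave -0.14 to 0.053 for *Suclg1* and -0.11 to 0.032 for *Fh1* with age, and -0.013 to 0.15 for *Pdha1* and -0.038 to 0.0997 for *Dlat* against young. It moved the log2 ratio of *Sucla2* to *Suclg2* between -0.023 and 0.065 against young and that of *Idh3a* to *Idh2* between -0.039 and 0.072 against saline. Against young, the ratio of *Idh3a* to *Idh2* was -0.42 to -0.32 and that of *Ogdh* to *Dlst* -0.18 to -0.14, each with exact permutation adjusted p-values up to 0.0745. The share of mitochondrially encoded counts differed with age by -3.25 to 2.53 percentage points. The cause of these changes was not tested.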
